A study of Mus musculus with 22 samples.

Results

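H3K27ac was nearly absent from 1 strain, and clearly present in another, in 429 of 94171 autosomal windows (0.456%) measured in Kupffer cells, which are macrophages that reside in the liver. The windows were chosen by their measured values: CPM values (the count of a window per 1000000 counts of its library) were averaged over the 3 libraries of each strain, and a window was taken when its lowest strain mean was under 0.4 CPM and its highest at least 3 CPM. By this rule A/J was lowest in 154 windows, BALB/cJ in 148 and C57BL/6J in 127. Each set was then divided by whether the ChIP input, chromatin sequenced without the antibody, held any count in the lowest strain. No input count was found there for 19, 23 and 6 windows of the A/J, BALB/cJ and C57BL/6J sets, 48 in all. In 10 of the A/J windows the BALB/cJ mean was 0 as well, and the order A/J, BALB/cJ, C57BL/6J decided their place.

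Acetylation of lysine 27 on histone H3 is laid down by the coactivators CBP and p300 at active enhancers and promoters, and its level follows the activity of the element. In macrophages such elements are opened by PU.1 together with AP-1, C/EBP and MAF family factors, and signals of the liver add the Kupffer cell program. Precipitated reads also require that the DNA is present and can be mapped, which input reads report, and in an F1 hybrid the alleles of both parents meet the same set of factors.

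ChIP–seq of H3K27ac was done on untreated Kupffer cells sorted from the livers of male mice of the inbred strains A/J, BALB/cJ and C57BL/6J, and of CB6F1/J, the F1 cross of BALB/cJ and C57BL/6J. Each of the 4 genotypes had 3 H3K27ac libraries, and the inputs used were 3 of A/J, 3 of BALB/cJ and 1 of C57BL/6J. The mice were young adults by the study's methods, and nothing in the sources used here says which libraries came from which animals, so the spread between libraries may be partly technical. Windows of 1000 bp were centered on merged ATAC–seq peaks in mm10, and the CB6F1/J reads were split by allele. The allele regions span 200 bp in the deposited table, although the methods give windows of 1000 bp for the F1 reads too, so the allele reads cover a shorter stretch than the parental values.

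Parental H3K27ac libraries held 2291426 to 12980348 counts in windows and the 7 inputs 583518 to 1916588. Replicate 2 was the shallowest of its strain in all 3 strains, and 1 count there was worth 0.338 to 0.436 CPM in that library. The limit of 0.4 CPM applied to the mean of 3 libraries, so a single count moved that mean by less. It could still decide whether a window near the limit met it. Without C57BL/6J replicate 2 the windows lowest in C57BL/6J numbered 270 rather than 127. A strain without any count could still hold up to 3 counts over its libraries, which is 0.124 CPM for A/J, 0.135 CPM for BALB/cJ and 0.141 CPM for C57BL/6J, and such limits cover counting error alone. Summed over the windows nearest the start sites of 10 Kupffer cell markers, H3K27ac was 171 to 181 CPM in A/J, 176 to 207 CPM in BALB/cJ and 211 to 260 CPM in C57BL/6J, against 5.08 to 7.87 CPM over all libraries for hepatocyte markers and 2.23 to 4.15 CPM for markers of sinusoidal endothelial cells. T and NK cell markers, over 2 windows, had 5.46 to 12.8 CPM in A/J and 9.79 to 13.6 CPM in BALB/cJ. In C57BL/6J they had 3.47 to 6.73 CPM. Neutrophil markers, over 3 windows, had 1.75 to 3.41 CPM in A/J, and 4.70 to 10.5 CPM in BALB/cJ. In C57BL/6J these had 1.62 to 4.78 CPM. Stellate cell markers, over 2 windows, and B cell markers, over 1, had at most 2.18 and 4.36 CPM in any library. No marker window was among the 429.

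The first named window of each set, by mean CPM in its highest strain, is shown as the central 200 bases of the mm10 reference, which is the C57BL/6J sequence, on the plus strand (RefSeq GRCm38). Capitals mark matches, on either strand, to motifs of macrophage factors: GAGGAAGT of PU.1, TGANTCA of AP-1, TTANGTAA of NFIL3 and C/EBP, the MAF core TGCTGA and the IRF motif (N is any base). They are shown because they lie under the largest named differences of each set. The sequence of the lowest strain was not analysed here.
*Hfe2* window, chr3:96489120-96489319, lowest in A/J, no input count there: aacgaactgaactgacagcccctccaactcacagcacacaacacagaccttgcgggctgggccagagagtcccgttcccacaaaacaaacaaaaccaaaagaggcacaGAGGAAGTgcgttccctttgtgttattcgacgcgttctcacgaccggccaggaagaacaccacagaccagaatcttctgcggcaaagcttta
*AA388235* window, chr17:33981194-33981393, lowest in A/J, input present: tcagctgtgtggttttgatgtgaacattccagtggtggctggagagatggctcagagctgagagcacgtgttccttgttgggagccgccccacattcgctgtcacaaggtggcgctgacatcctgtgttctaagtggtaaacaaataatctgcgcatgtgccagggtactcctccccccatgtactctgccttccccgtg
*Coro2a* window, chr4:46580794-46580993, lowest in BALB/cJ, no input count there: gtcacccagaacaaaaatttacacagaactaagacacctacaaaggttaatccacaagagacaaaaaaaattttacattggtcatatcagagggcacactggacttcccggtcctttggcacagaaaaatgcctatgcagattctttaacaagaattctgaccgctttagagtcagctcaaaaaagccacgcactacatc
*Taf11* window, chr17:27897106-27897305, lowest in BALB/cJ, input present: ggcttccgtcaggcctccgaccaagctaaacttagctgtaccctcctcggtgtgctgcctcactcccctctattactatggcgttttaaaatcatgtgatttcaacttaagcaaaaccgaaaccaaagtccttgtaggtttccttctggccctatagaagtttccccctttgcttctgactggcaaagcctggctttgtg
*Nek5* window, chr8:22139752-22139951, lowest in C57BL/6J, no input count there: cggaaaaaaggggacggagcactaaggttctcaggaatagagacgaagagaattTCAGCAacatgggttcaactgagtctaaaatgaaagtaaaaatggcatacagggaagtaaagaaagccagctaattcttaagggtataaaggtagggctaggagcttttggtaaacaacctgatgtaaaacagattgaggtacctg
*Mblac1* window, chr5:138207317-138207516, lowest in C57BL/6J, input present: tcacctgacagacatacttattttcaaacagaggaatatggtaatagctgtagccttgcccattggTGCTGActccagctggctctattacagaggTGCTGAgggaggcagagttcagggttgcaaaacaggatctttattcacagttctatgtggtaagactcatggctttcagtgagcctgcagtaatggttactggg
The *Hfe2* window holds 1 PU.1 match, the *Nek5* window 1 MAF match and the *Mblac1* window 2, while the other 3 have none in these bases. Repeats masked in the reference made up 52.6% of the whole *Hfe2* window and 70.7% of the *Nek5* window, against 15.2% at *Coro2a*, 15.3% at *Mblac1*, 42.2% at *AA388235* and 4.3% at *Taf11*.

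The lowest strain means of the 429 windows had a median of 0.266 CPM and the highest strain means a median of 5.39 CPM, with a range of 3.00 to 62.7 CPM. The middle strain means had a median of 1.03 CPM, so the middle strain was often weak as well. The highest strain was C57BL/6J in 235 windows, BALB/cJ in 108 and A/J in 86. In 349 windows 1 strain was under 0.4 CPM, which was A/J in 112, BALB/cJ in 120 and C57BL/6J in 117. A/J and BALB/cJ were both under 0.4 CPM in 67 windows, BALB/cJ and C57BL/6J in 8, and A/J and C57BL/6J in 5. Since the rule used these values, they describe the choice and were not tested. The libraries of the lowest and the highest strain overlapped in 1 of the 429 windows. Just inside the lower limit stood windows nearest to *Ptp4a2* (lowest mean 0.398 CPM) and *Arl15* (0.398 CPM), and just outside it *Fam20c* (0.4002 CPM) and *4933417E11Rik* (0.401 CPM). The upper limit had *Zfp9* (highest mean 3.003 CPM) and *Mxra7* (3.005 CPM) just inside, and *Col6a6* (2.98 CPM) and *Adcy7* (2.97 CPM) just outside.

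Among windows lowest in A/J, the highest named values lay near genes of varied function and were mostly found in C57BL/6J. The window at chr17:33980793-33981793, at the promoter of *AA388235*, had 0, 0 and 0.333 CPM in A/J, 0, 0 and 0.373 CPM in BALB/cJ and 33.3, 37.9 and 39.4 CPM in C57BL/6J. An intergenic window 62821 bp from the start site of *Gcnt1*, which encodes a glycosyltransferase that branches O-linked glycans, had 0.404, 0 and 0.666 CPM in A/J, 0.235, 1.01 and 1.40 CPM in BALB/cJ and 32.8, 30.1 and 43.4 CPM in C57BL/6J. C57BL/6J was thus the lone high strain at both, with no overlap. An intronic window of *Spag9*, a scaffold of JNK signaling, was low in A/J alone: 0.504, 0 and 0.499 CPM in A/J, 27.8, 11.8 and 17.7 CPM in BALB/cJ and 32.6, 15.4 and 43.3 CPM in C57BL/6J. The window near *Trmt61a*, the catalytic subunit of a tRNA methyltransferase, was also low in A/J alone, with 0.101 to 0.2497 CPM in A/J, 20.2 to 25.0 CPM in BALB/cJ and 25.0 to 29.8 CPM in C57BL/6J.

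The A/J windows without input count had their highest named values near *Hfe2*, which encodes the iron regulator hemojuvelin, and in *Tmem181a*, *Trim12a* and *Tmsb10*. At *Hfe2* the libraries held 0 CPM in all 3 of A/J, 0.117, 0 and 0 CPM in BALB/cJ and 15.0, 16.8 and 19.3 CPM in C57BL/6J. The promoter window of *Trim12a*, a mouse relative of the retroviral restriction factor *Trim5*, held no count in any A/J or BALB/cJ library and 13.5, 9.39 and 17.5 CPM in C57BL/6J. Beside it, the promoter window of *Gm15133* reached a mean of 57.6 CPM in C57BL/6J and was named after its value was seen. Near *Tmsb10*, which encodes an actin-sequestering thymosin, A/J alone was low, with 0.101, 0 and 0 CPM against 6.69, 3.72 and 4.20 CPM in BALB/cJ and 7.69, 12.9 and 8.55 CPM in C57BL/6J.

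Of the windows lowest in BALB/cJ, 39 were highest in A/J and 109 in C57BL/6J. An intronic window of *Coro2a*, which encodes a coronin that binds actin, had the highest mean of the whole set: 0.101, 0 and 0 CPM in A/J, 0 in all 3 libraries of BALB/cJ and 59.8, 45.4 and 83.0 CPM in C57BL/6J. *Trim5*, whose product restricts retroviral capsids in primates, had a window 485 bp from its start site with 0.202, 0 and 0 CPM in A/J, 0 in BALB/cJ and 33.9, 31.7 and 47.7 CPM in C57BL/6J. Both carried the mark in C57BL/6J alone. *Nlrp1b*, the inflammasome sensor of anthrax lethal toxin, differed from them: the window at chr11:71251417-71252417 had 14.1, 20.1 and 21.3 CPM in A/J, 0.235, 0 and 0 CPM in BALB/cJ and 14.8, 20.0 and 13.3 CPM in C57BL/6J. Near *Pik3c3*, the class III phosphatidylinositol 3-kinase, the mark was seen in A/J, at 12.8, 17.5 and 17.3 CPM, with 0 in BALB/cJ and 1.28, 0 and 0.847 CPM in C57BL/6J. With input present, the named windows were those nearest to *Taf11*, a TFIID subunit, at 26.9 to 34.1 CPM in C57BL/6J, the cAMP phosphodiesterase gene *Pde4b* at 16.8 to 29.9 CPM, *Ank2* (ankyrin B) at 11.5 to 27.04 CPM and the protocadherin gene *Fat4* at 14.0 to 28.5 CPM, against at most 0.559 CPM in any BALB/cJ library of the 4 windows. The *Taf11* window lay 12037 bp from the *Taf11* start site, and the *Fat4* window was intergenic, 381988 bp from that of *Fat4*.

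In windows lowest in C57BL/6J, A/J and BALB/cJ often shared the mark. Near *Mblac1*, the libraries had 30.3, 29.7 and 34.4 CPM in A/J, 35.4, 29.4 and 39.7 CPM in BALB/cJ and 0, 0.354 and 0.308 CPM in C57BL/6J. The promoter window of *Cacna1a*, which encodes the pore subunit of a neuronal calcium channel, had 26.3, 34.7 and 24.3 CPM in A/J, 30.8, 25.3 and 17.1 CPM in BALB/cJ and 0.366, 0.709 and 0.077 CPM in C57BL/6J. *Clip4* was also low in C57BL/6J alone, with 14.7 to 21.1 CPM in A/J, 19.1 to 29.9 CPM in BALB/cJ and 0 to 0.709 CPM in C57BL/6J. At *Ypel3* A/J was low as well, at 0.404, 0.436 and 0.583 CPM, with 25.3, 28.7 and 19.4 CPM in BALB/cJ and 0.549, 0.354 and 0.154 CPM in C57BL/6J. Without input count in C57BL/6J, the intronic *Nek5* window had 8.78 to 12.4 CPM in A/J, 11.6 to 17.3 CPM in BALB/cJ and 0.183 to 0.354 CPM in C57BL/6J, and *Slc39a2*, a zinc transporter, had 4.15 to 5.14, 3.05 to 3.45 and 0 to 0.732 CPM in the same strains.

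**Figure D1:**
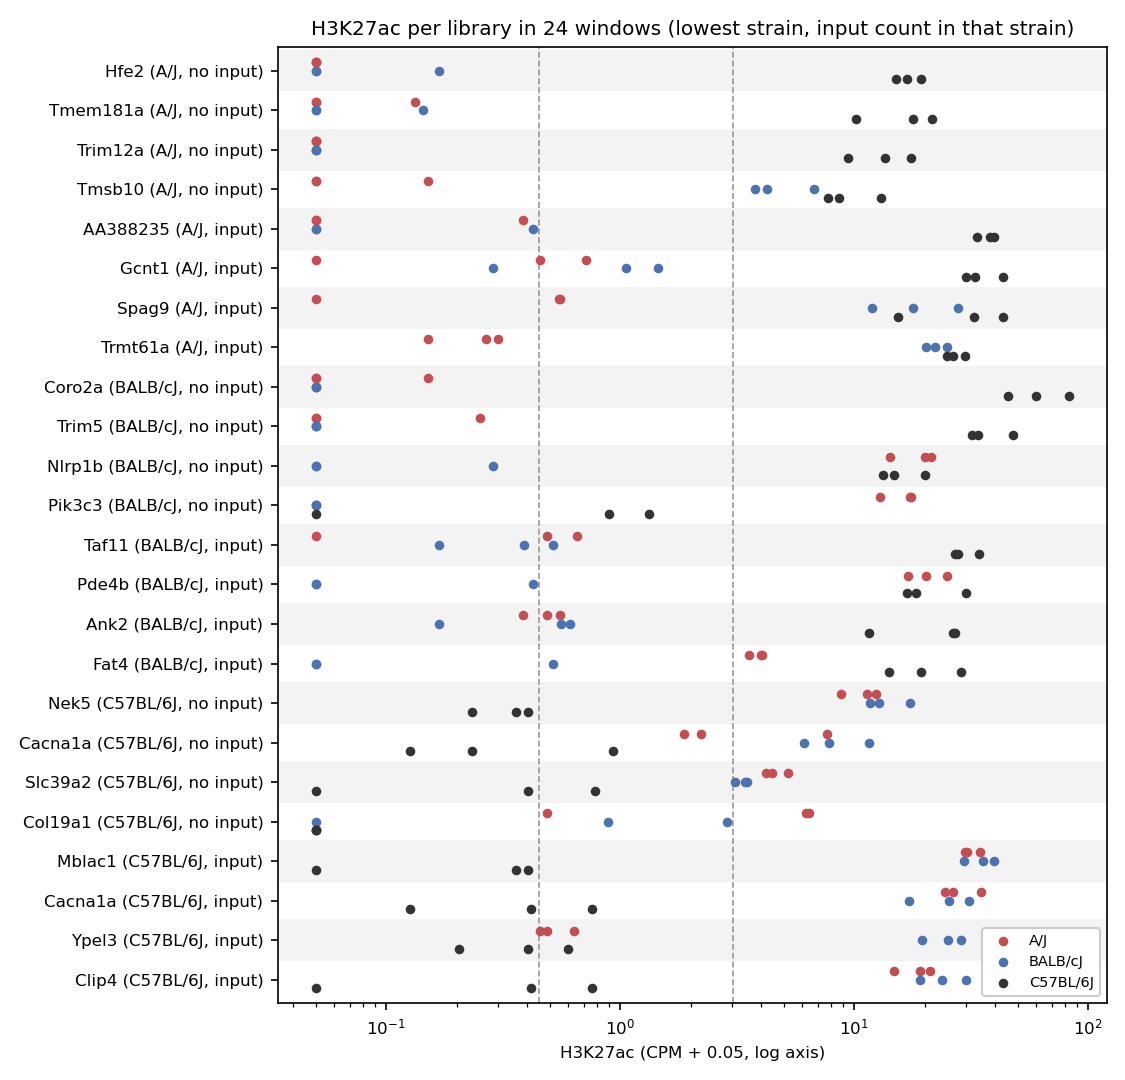
Each row is 1 window named by its nearest gene, with the lowest strain and the presence of input counts there in brackets, and each point is the CPM of 1 H3K27ac library plus 0.05, on a log axis, with dashed lines at the limits of 0.4 and 3 CPM. Coro2a, at the highest C57BL/6J values (45.4 to 83.0 CPM), shows a mark seen in C57BL/6J alone. Nlrp1b, with BALB/cJ alone at the left, shows a mark nearly absent from a single strain.

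The windows were scattered: joined where at most 10000 bp apart, they formed 347 loci, of which 286 held 1 window, 48 held 2 and 13 held 3 or more (47 windows). Neighboring windows can share reads, and 90 of the 429 overlapped another. The largest locus lay in an intron of *Pde4b*, which encodes a phosphodiesterase that hydrolyzes cAMP, a messenger that dampens inflammatory responses of macrophages, at chr4:102513310-102518536, where all 6 windows of the table met the rule. Their BALB/cJ means were 0 to 0.124 CPM, against 7.84 to 21.3 CPM in A/J and 3.32 to 21.7 CPM in C57BL/6J. A further *Pde4b* window, at chr4:102533689-102534689, met the rule with 6.15, 8.29 and 7.32 CPM in A/J, 0 in BALB/cJ and 2.93, 5.67 and 2.93 CPM in C57BL/6J. The *Pde4b* promoter itself was not low in BALB/cJ: the window 398 bp from its start site averaged 60.1 CPM in A/J, 53.8 CPM in BALB/cJ and 51.6 CPM in C57BL/6J.

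Other genes with 3 or more windows were *Btbd11* (6), *Ank2* (5), *Tshz2* (4), and *Arl15*, *Cacna1a*, *Lyplal1*, *Mxra7*, *Nlrp1b*, *Trim5* and *Zbtb7c* (3 each). *Btbd11*, *Ank2*, *Tshz2* and *Zbtb7c* were highest in C57BL/6J. The promoter window of *Btbd11* had 0.303, 0.436 and 0.083 CPM in A/J, 0.587, 0.675 and 0.280 CPM in BALB/cJ and 11.5, 12.9 and 10.6 CPM in C57BL/6J. *Lyplal1* and *Mxra7* were low in C57BL/6J. *Arl15*, a small GTPase gene, had the mark in A/J, with 15.0, 10.7 and 12.2 CPM in A/J, 1.41, 0.169 and 0.932 CPM in BALB/cJ and 0.732, 0 and 0.462 CPM in C57BL/6J at its strongest window. Around the *Cacna1a* promoter, 5 more windows between chr8:84413891 and chr8:84421206 did not meet the rule but were also low in C57BL/6J, with means of 0.0514 to 0.908 CPM there, against 2.37 to 29.7 CPM in A/J and 1.85 to 31.6 CPM in BALB/cJ.

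**Figure D2:**
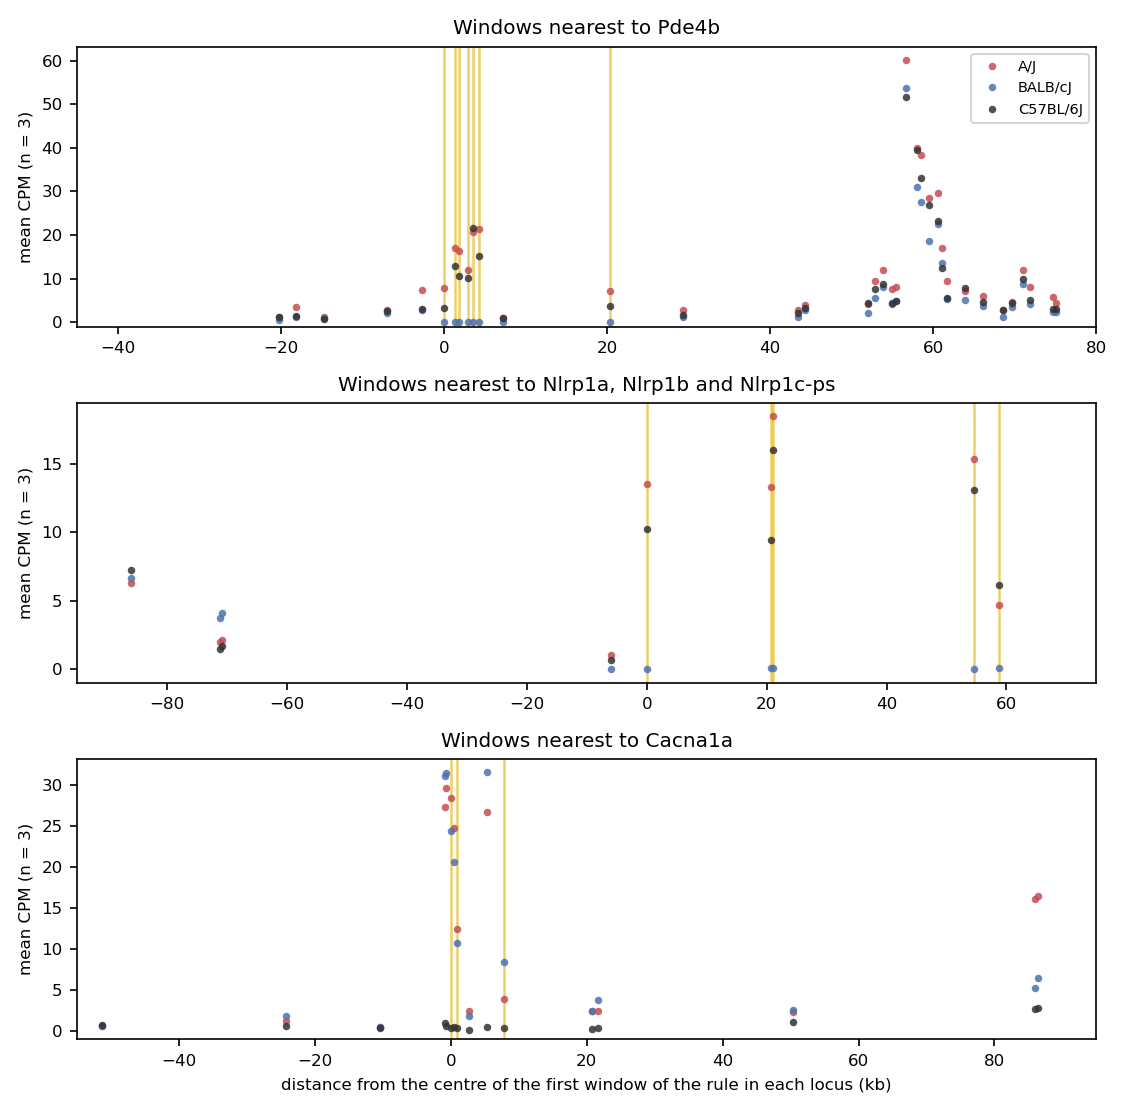
Points are the mean CPM of 3 libraries per strain for every window whose nearest gene is the one named, by distance in kb, and yellow lines mark windows that met the rule. BALB/cJ lies at 0 to 0.124 CPM in the marked Pde4b windows and returns to 53.8 CPM at the promoter, BALB/cJ is at 0 to 0.0783 CPM in the Nlrp1b and Nlrp1c-ps windows, and C57BL/6J is at most 0.908 CPM around the Cacna1a promoter.

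Gene lists of immune function were counted by the nearest gene. Windows of inflammasome sensor genes met the rule in 5 of 49 (10.2%), against 0.456% of all autosomal windows, and all 5 belonged to *Nlrp1b* and the pseudogene *Nlrp1c-ps*, low in BALB/cJ. TRIM genes had 6 of 288 windows (2.08%): 3 of *Trim5*, 1 of *Trim12a*, 1 of *Trim47*, which was highest in A/J (4.36 to 6.66 CPM) and low in BALB/cJ (0.186 to 0.352 CPM), and 1 of *Trim11*. Interferon-inducible genes had 10 of 344 (2.91%), and 9 of them were of the *Ifi200* family of nucleic acid sensors on chromosome 1. At the *Ifi208* promoter A/J had 0.303, 0 and 0.2497 CPM, BALB/cJ 6.58, 7.77 and 7.27 CPM and C57BL/6J 4.57, 7.09 and 3.47 CPM. At the *Ifi213* promoter, A/J (0.333 to 0.605 CPM) and BALB/cJ (0 to 0.705 CPM) were both low, against 5.24 to 7.69 CPM in C57BL/6J. The *Ifi203* window was low in A/J (0 to 0.404 CPM), with 0.338 to 1.21 CPM in BALB/cJ and 2.01 to 4.07 CPM in C57BL/6J. A/J input held no count at this window, nor at the *Ifi213* window at chr1:173579529-173580529, also lowest in A/J. BALB/cJ input held none at the *Ifi204* windows, which were lowest in BALB/cJ. Phosphodiesterase genes had 7 of 244 (2.87%), all of *Pde4b*.

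MHC genes, with symbols starting in H2-, gave 3 of 183 windows (1.64%). The class I gene *H2-T10* held no count in BALB/cJ against 3.37 to 8.60 CPM in C57BL/6J over 2 overlapping windows. BALB/cJ input held no count in these 2 windows either. *H2-L*, also of class I, was low in C57BL/6J. Myeloid and NK receptors gave 3 of 460 (0.652%). The promoter window of *Pirb*, an inhibitory receptor for MHC class I, held 3.43, 5.89 and 4.58 CPM in A/J, 0 in BALB/cJ and 5.49, 5.14 and 5.62 CPM in C57BL/6J, while windows of *Lilra5* and *Klra4* held no count in A/J or BALB/cJ. These receptor, MHC and *Ifi200* genes, as well as *Trim5*, *Trim12a*, *Nlrp1b* and *Nlrp1c-ps*, lie in families of related copies. Reads may be divided among copies, and their values are uncertain for that reason. Kupffer cell identity genes had 1 of 499 (0.2004%, *Lilra5*), chemokines and their receptors 1 of 399 (0.251%), solute carriers 9 of 1845 (0.488%, 2 of them of the arginine transporter gene *Slc7a2*), zinc finger genes 8 of 1417 (0.565%), olfactory and vomeronasal genes 2 of 218 (0.917%) and cathepsins 0 of 174. Since the lists were set with earlier results known, these shares are descriptions without a test.

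Input counts separated the windows further. Of the windows lowest in A/J, 12.3% had no input count in A/J, against 0.0743% of all autosomal windows. The shares were 15.5% against 0.0934% for BALB/cJ and 4.72% against 1.16% for C57BL/6J, whose single input library left a median of 5.0 counts per window. At *Coro2a*, BALB/cJ input held 0 counts where 42.4 were expected from the C57BL/6J input scaled by total counts. That expectation rests on 9.0 counts in the 1 C57BL/6J library. A/J input held 11.0 counts there, from a total of 3535141 against 2750320 in BALB/cJ, so an expectation from A/J would be far lower. The *Nek5* window had 0 of 2.12 expected in C57BL/6J, and over the 6 windows of its set 2.12 to 5.53 counts were expected, close to the 3 counts that a count of 0 allows. Windows with no input count in the lowest strain also had no H3K27ac count there in 29 of 48, and windows with input in 8 of 381.

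Where A/J and BALB/cJ were both under 0.4 CPM, input was missing from both strains in 19 of 67 windows and from at least 1 in 24. All 3 *Trim5* windows and the *Trim12a* window were of this kind. A/J, BALB/cJ and C57BL/6J input held 0, 0 and 3.5 counts at the strongest *Trim5* window, and the *Trim5* window at chr7:104299599-104300599, which averaged 2.43 CPM in C57BL/6J and so fell short of the rule, had 0, 0 and 7.0 input counts. *Coro2a* was different again, with 11.0, 0 and 9.0 input counts.

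Windows with some input still had less of it than expected. Over all 429 the input of the lowest strain was a median of 73.9% of that expected from the highest strain, and 79.6% over the 381 with input. For windows lowest in A/J and highest in C57BL/6J the median was 64.4% of expected, against 106% over all autosomal windows for the same strains, and with BALB/cJ as the highest strain it was 78.9% against 100.3%. For those lowest in BALB/cJ it was 61.0% against 99.6% with A/J as the highest strain and 67.2% against 106% with C57BL/6J. For those lowest in C57BL/6J it was 80.8% against 93.2% with A/J and 83.5% against 94.3% with BALB/cJ. The 6 windows of the *Pde4b* locus had 3.5 to 11.0 input counts in BALB/cJ, against 23.0 to 40.5 in A/J and 5 to 13 in the shallower C57BL/6J input. *Gcnt1* had more input in A/J than expected, 30.5 against 24.2 counts. The part of the input difference in the H3K27ac difference was not tested.

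**Figure D3:**
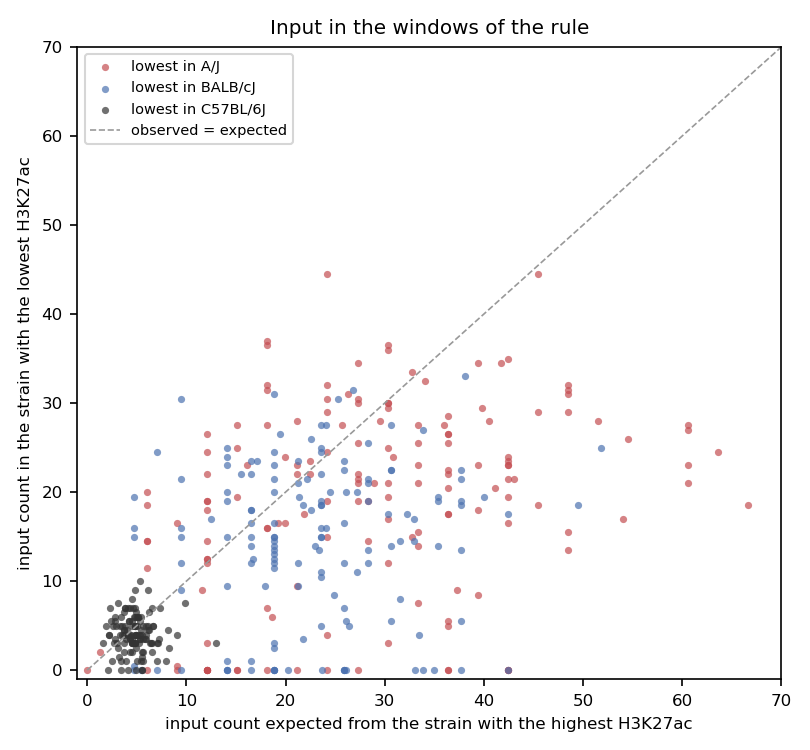
Each point is 1 of the 429 windows, with the summed input count of its lowest strain against the count expected from the input of its highest strain, and the dashed line marks equality. A row of 48 points at 0 and a median of 73.9% of expected place most windows under the line.

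The input libraries did not choose the 429 windows, although they set which were grouped as without input, so strains were compared in them with edgeR's quasi-likelihood test across all 93971 autosomal windows with at least 20 input counts, and 386 of the 429 passed that filter. A/J exceeded BALB/cJ in 22 windows (0.0234%) and was below it in 28 (0.0298%), and these included 11 and 3 of the 429. A window that lacks input in 1 strain passes the filter through the others, so the 14 are given by name. Of the 14, 5 were the windows of *Nlrp1b* and *Nlrp1c-ps*: at the strongest *Nlrp1b* window A/J input held 45.0 counts, BALB/cJ input 0 and C57BL/6J input 9.5, at least 11.7-fold more in A/J than in BALB/cJ taking 3 counts as the floor of BALB/cJ (adjusted p = 3.0e-05). The other *Nlrp1b* windows were at least 11.0-fold and 11.3-fold higher in A/J, and both *Nlrp1c-ps* windows were higher in A/J as well, with 26.0 against 0 and 41.0 against 1.0 counts (adjusted p = 0.0184 and 6.9e-05).

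*Tmsb10*, *Wfdc17* and *Esm1* went the other way, with 0 input counts in A/J against 31.0, 27.5 and 25.5 in BALB/cJ, at least 13.3-fold, 11.8-fold and 10.9-fold lower in A/J (adjusted p = 3.0e-05, 0.00032 and 0.00085). *Pik3c3*, *Fzd8* and *Gm13286* had 33.5, 28.5 and 30.5 counts in A/J against 0, 0.5 and 0 in BALB/cJ (adjusted p = 0.00159, 0.0123 and 0.00248 in edgeR). The *Pde4b* window outside the large locus had 43.0 counts in A/J against 4.0 in BALB/cJ, a log2 fold change of 3.03 (SE 0.64, adjusted p = 0.0122). The last 2 were the overlapping *Col19a1* windows, low in C57BL/6J, whose input was 33.5 counts in A/J and 0 in BALB/cJ and C57BL/6J (adjusted p = 0.00113 for A/J against BALB/cJ). In a megablast search both were 99.8% identical over 1000 bases to the mitochondrial genome of the reference, a check added after their values were seen. Whether their reads came from mitochondrial DNA was not tested.

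BALB/cJ against C57BL/6J, with 1 library for C57BL/6J that was assumed to vary like the others, gave 0 windows higher (0.0%) and 4 lower (0.00426%), of which 3 were among the 429: 2 of *Nlrp1b* and that of *Gm13286*. These 3 had already been grouped as without input in BALB/cJ, and C57BL/6J has no spread of its own here. A/J against C57BL/6J gave 0 higher (0.0%) and 0 lower (0.0%), with 4938 windows under an unadjusted p of 0.05 in edgeR and 0 calls in DESeq2 (1434 windows under that p). BALB/cJ against C57BL/6J had 5170 windows under that p in edgeR. DESeq2 called 0 windows in A/J against BALB/cJ and 0 in BALB/cJ against C57BL/6J, with 748 and 1527 windows under that p. The 50 input calls of A/J against BALB/cJ were 7 without A/J replicate 2 and 10 without BALB/cJ replicate 3, the deepest inputs of their strains, with 5 of the 429 windows called in both cases. They were 24, 32 and 24 without A/J replicate 1, A/J replicate 3 and BALB/cJ replicate 2. Without BALB/cJ replicate 3, BALB/cJ against C57BL/6J gave 1 call, of a window among the 429, and 2 calls in all without A/J replicate 2 or BALB/cJ replicate 2.

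Peaks of ATAC–seq, which measures open chromatin, placed the windows but were not used by the rule, and they were listed far less often in the lowest than in the highest strain. The lowest strain had an ATAC–seq peak of its own in 29 of 429 windows (6.76%) and the highest strain in 390 (90.9%). By lowest strain the counts were 4 of 154 for A/J, 14 of 148 for BALB/cJ and 11 of 127 for C57BL/6J. Over all autosomal windows a peak was listed for A/J in 59.6%, for BALB/cJ in 82.2% and for C57BL/6J in 64.2%, and in all 3 strains in 51.4%, against 5.36% of the 429. Windows without input in the lowest strain had a peak there in 1 of 48, a *Col19a1* window, and in the highest strain in 42. BALB/cJ peaks were nevertheless listed in 3 of the 7 *Pde4b* windows, where BALB/cJ had 0 to 0.124 CPM of H3K27ac.

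CB6F1/J mice carry a BALB/cJ and a C57BL/6J allele in the same nuclei, and their reads were not used to choose the windows. Each window took the allele reads of the nearest region, and 395 of the 429 had a region. Reads that span a variant between the strains were found in 195 windows, with a median of 18.5 over both alleles and 3 libraries, and 141 had at least 10. Windows without input in the lowest strain were nearly all without such reads, 45 of 48, against 189 of 381 with input. The absence of allele reads did not mean absence of reads: windows with a region but no variant-spanning read had a median of 69.25 perfectly mapped reads summed over both genomes, and the *Coro2a* window had 582.5 on the BALB/cJ genome and 585 on mm10, so the alleles could not be told apart there.

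In windows low in BALB/cJ, the C57BL/6J allele held most reads, and in windows low in C57BL/6J the BALB/cJ allele did. Of the 53 windows lowest in BALB/cJ with at least 10 allele reads, 51 had more C57BL/6J than BALB/cJ reads, and the BALB/cJ share had a median of 6.67% (0 to 81.7%). Of the 43 lowest in C57BL/6J, 41 had more BALB/cJ reads, and the BALB/cJ share had a median of 91.9% (46.7 to 100%). Over all 14303 autosomal windows with at least 10 allele reads the median share was 49.3%, and 49.4% of them lay between 40 and 60%. Shares of BALB/cJ reads of at most 10% were found in 34 of the 53 (64.2%) against 4.10% of all windows, and shares of at least 90% in 24 of the 43 (55.8%) against 2.92%. The F1 has no A/J allele, and windows lowest in A/J followed the order of their other strains: all 38 that were highest in C57BL/6J had more C57BL/6J reads, and of the 7 that were highest in BALB/cJ, 5 had more BALB/cJ reads. A minimum of 10 reads can be reached through 1 allele and so favors uneven windows, but it does not set which allele is higher.

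**Figure D4:**
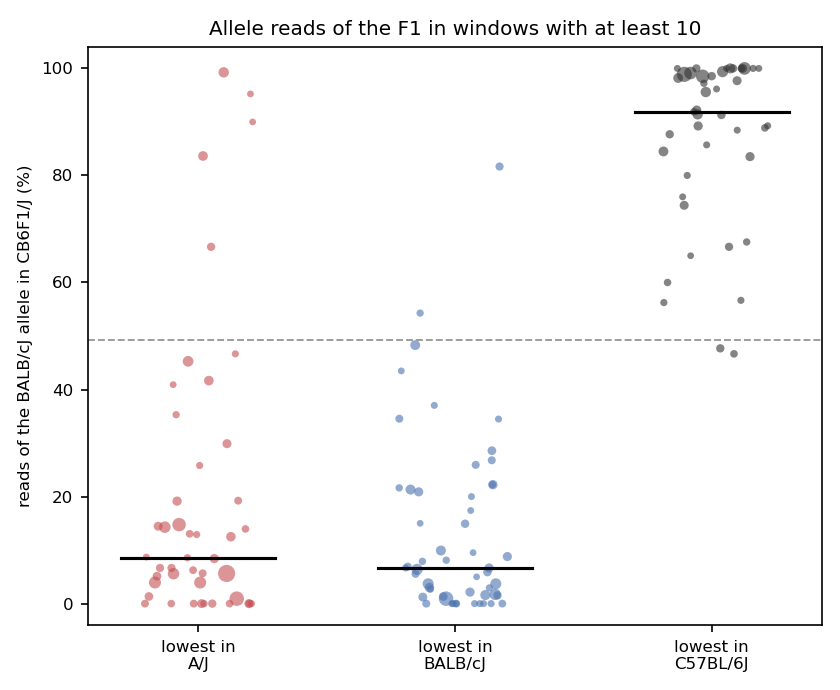
Each point is a window with at least 10 variant-spanning reads in CB6F1/J, placed by its lowest parental strain and by the percent of reads from the BALB/cJ allele, with larger points for more reads, black bars at the medians (8.57%, 6.67% and 91.9%) and a dashed line at the median of all autosomal windows (49.3%). The sets lowest in A/J and BALB/cJ lie mostly near 0 and the set lowest in C57BL/6J near 100%.

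The edgeR quasi-likelihood test of allele counts kept windows with a mean normalized count over 16 in the 6 allele columns. It tested 3870 autosomal windows, of which 122 had the BALB/cJ allele higher (3.15%) and 171 the C57BL/6J allele (4.42%), at adjusted p values under 0.05 and log2 fold changes beyond 1 in either direction. Only 10 of the 429 windows passed the filter, in 8 regions, and all 10 were called. A window with 1 silent allele passes only when the other is deep, so the 10 of 10 is no measure of how often the remaining windows differ. With the library as a block, 113 windows were called in all, 44 with the BALB/cJ and 69 with the C57BL/6J allele higher, and 5 of the 10 stayed past the threshold. Calls over all windows numbered 132 without CB6F1/J replicate 2 and 103 without replicate 3.

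The BALB/cJ allele was higher at 4 windows, all lowest in C57BL/6J. *Clip4* had 22, 57 and 55 BALB/cJ reads in the 3 libraries against 0, 2.0 and 0 C57BL/6J reads (log2 fold change 5.89, SE 0.71, adjusted p = 3.5e-05). With all F1 regions in the *Clip4* window summed the log2 fold change was 1.79 (adjusted p = 0.00318), and it was 5.19 without CB6F1/J replicate 3 and 8.24 without replicate 2, the library with both C57BL/6J reads. The windows nearest *B230214G05Rik* and *1700073E17Rik* had 178 against 2.0 and 114 against 1.0 reads (log2 fold changes 6.27 and 6.39, SE 0.68 and 0.85, adjusted p = 1.6e-05 and 9.9e-05). *5430403N17Rik* had 26.0, 53.5 and 37.5 BALB/cJ reads and no C57BL/6J read, which is at least 39.0-fold higher taking 3 reads over the libraries as the floor, with an adjusted p of 3.5e-05 that was 0.0585 with the library as a block. All 3 libraries showed the direction at each of these windows. The log2 fold change at *B230214G05Rik* was 5.58 without CB6F1/J replicate 2 and 8.72 without replicate 3, which held its only C57BL/6J reads, and that at *1700073E17Rik* was 5.76 without replicate 2.

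The C57BL/6J allele was higher at 6 windows in 4 regions. *Gcnt1* had 11.5, 1.0 and 1.0 BALB/cJ reads against 57.5, 76.5 and 92.0 C57BL/6J reads (log2 fold change -3.85, SE 0.67, adjusted p = 0.00118). Its BALB/cJ mean in the parents was 0.882 CPM and its C57BL/6J mean 35.4 CPM. Near *Gm8884* 2 windows shared a region with 1.5 against 161 reads (log2 fold change -6.87, SE 0.74, adjusted p = 1.6e-05), and 2 in *Actl7a* shared one with 4, 0 and 0 BALB/cJ reads against 22, 39.5 and 36 C57BL/6J reads (log2 fold change -4.35, SE 0.87, adjusted p = 0.00305). *Tox4*, which encodes an HMG box protein, had 1, 12 and 7 BALB/cJ reads against 13, 36 and 66.5 C57BL/6J reads (log2 fold change -2.50, SE 0.57, adjusted p = 0.00826). With the library as a block, the adjusted p was 0.0783 for *Gcnt1*, 0.0977 for *Actl7a* and 0.0793 for *Tox4*, so these calls were lost, as they were for *Gcnt1* and *Actl7a* without CB6F1/J replicate 3 (0.129 and 0.17) and with DESeq2 (0.066 and 0.0703). Without CB6F1/J replicate 1, which held all the BALB/cJ reads of *Actl7a* and most of those of *Gcnt1* and *Gm8884*, the log2 fold changes were -8.24, -6.20 and -8.86. Without replicate 3 they were -3.67 at *Actl7a* and -3.17 at *Gcnt1*, and without replicate 2 they were -6.20 at *Gm8884* and -3.14 at *Tox4*.

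A few windows did not follow their parents, and they were picked out after their values were seen. Of the 7 *Pde4b* windows 1 had variant-spanning reads, and there the BALB/cJ allele held 4.5, 13.5 and 6.5 reads against 3.0, 1.5 and 1.0 from the C57BL/6J allele, although BALB/cJ had 0.235, 0 and 0 CPM and C57BL/6J 13.5, 14.9 and 10.2 CPM in the parents. Among windows with at least 10 allele reads it was the lone one with more than 60% of its reads from an allele whose parent was under 0.4 CPM while the other parent had at least 3 CPM. Near-even shares of the reads summed over the libraries, between 40 and 60%, were seen at 6 windows with such parents. The *Mir331* window had 28.5 BALB/cJ and 30.5 C57BL/6J reads, with parental means of 0.0311 CPM in BALB/cJ and 8.28 CPM in C57BL/6J. The libraries of the *Mir331* window were each near even, with 5.0, 6.0 and 17.5 BALB/cJ against 5.0, 6.5 and 19.0 C57BL/6J reads. The others, near *Dtnbp1*, *App*, *Iffo2*, *Eva1a* and *Ttc12*, had 11.5 to 22.5 reads in all. In each of them the libraries disagreed on the higher allele, so the even share arose from summing. *Dtnbp1* had 9.0, 0 and 0.5 BALB/cJ against 0, 2.5 and 5.5 C57BL/6J reads. Conversely, the window nearest the *a* gene (nonagouti), which was low in A/J (mean 0.224 CPM) and C57BL/6J (0.609 CPM) and had 13.7 CPM in BALB/cJ, gave 67.5 BALB/cJ reads against 0.5 C57BL/6J reads.

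In nearby windows that did not meet the rule, the lowest strain was often closer to the others, a contrast that the rule itself set in part. The nearest window that did not overlap, did not meet the rule and lay within 10000 bp existed for 310 of the 429, at a median distance of 2948.5 bp. In these neighbors the lowest strain had a median of 37.0% of the CPM of the highest strain (quartiles 15.7 and 72.8%), against 4.43% in the 310 windows themselves. Neighbors were under 50% in 187 cases and at least at 75% in 77. Over all autosomal windows with at least 3 CPM in the second strain of a pair, the median was 97.1 to 98.1% in the 6 strain orders, and 2.95 to 6.85% of windows were under 50%. Neighbors had no such limit, and their median was 3.63 CPM in the highest strain of the chosen window. The background thus leaves out weak windows that the neighbors include. Windows that met the rule were left out as neighbors, which raises the share of the neighbors, while the rule held that of the chosen windows low. The 37.0% against 4.43% is thus a description, and how far the low signal extends was not tested. Of the 310 neighbors, 50 were themselves under 0.4 CPM in the lowest strain.

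**Figure D5:**
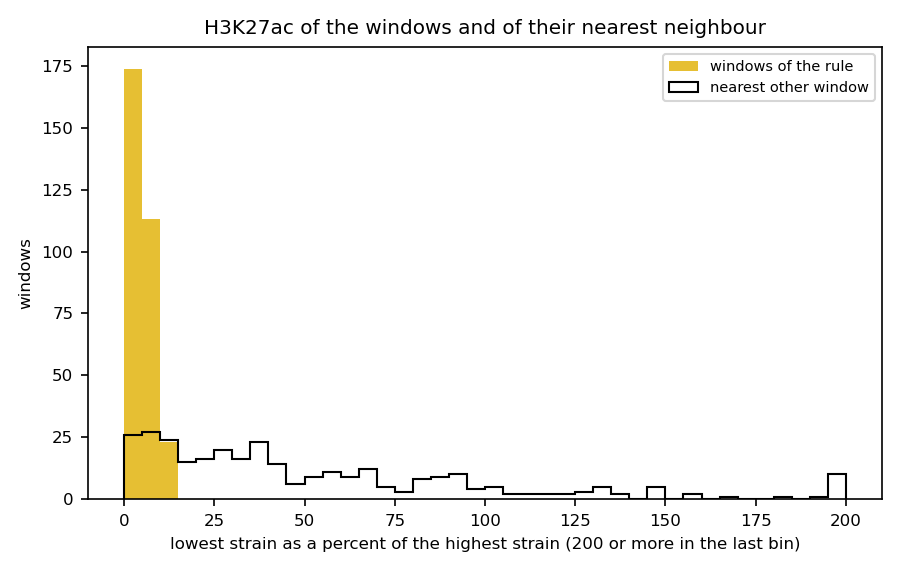
Bars give the number of windows by the mean CPM of the lowest strain as a percent of that of the highest strain, for the 310 windows of the rule with a neighbor (yellow, median 4.43%) and for the nearest other window (black outline, median 37.0%). The rule fixed the position of the yellow bars, and windows that met it were left out of the black outline.

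The 429 windows were more often intergenic, distal and rich in repeats than the table as a whole. Intergenic windows made up 47.3%, against 34.5% of all autosomal windows, introns 40.6% against 43.7% and promoters 7.23% against 15.1%. Among the 48 windows without input in the lowest strain, 12 were promoters. More than 10 kb from the nearest start site lay 66.7%, against 51.5%. Windows with over 50% repeat-masked sequence made up 13.1%, against 3.86% of all, and 29.9% of the 67 windows low in A/J and BALB/cJ, against 5.13% of the 117 low in C57BL/6J alone, all in the mm10 sequence. GC content of the central 200 bases had a median of 48.5%, against 49.5%. A PU.1 motif as spelled above was found in 6.53% of the 429 against 8.57% of all windows, an AP-1 motif in 12.1% against 14.3%, an NFIL3 and C/EBP motif in 1.86% against 1.99%, an IRF motif in 5.36% against 4.28% and the MAF motif in 21.9% against 18.5%. These matches are in the reference sequence of the central bases alone and describe neither binding nor the sequence of the other strains.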

How the data were processed

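H3K27ac ChIP–seq and input of sorted Kupffer cells were used for the 3 inbred strains, and H3K27ac for the CB6F1/J hybrid. The authors mapped reads with Bowtie2 to the genome of each strain, made from mm10 with its SNPs and indels but without larger structural variants, moved them to mm10 coordinates with MMARGE and counted tags with HOMER. The deposited values are counts without normalization, and the deposited replicates 2, inputs and allele columns hold estimated counts in steps of 0.5. Allele and input counts were rounded for the edgeR and DESeq2 tests, while CPM values and allele shares used the counts as given. F1 allele counts are perfectly mapped reads that span a variant. The members and gene lists were chosen with earlier results of these data known.

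CPM was each count over its column sum. Allele and input counts were tested with edgeR 4.0.16 in R 4.3.3 (quasi-likelihood, Benjamini-Hochberg adjusted p under 0.05, absolute log2 fold change over 1), after filters of a mean normalized count over 16 and a summed input count of at least 20, with DESeq2 1.42.0, other filters and scalings, left-out replicates and a replicate block as alternatives. The scripts were tested on simulated data. Both F1 alleles came from the same library, and their deviations correlated by 0.159, 0.16 and 0.183 in the 3 libraries. Named windows were the 4 with the highest CPM in each set (1 per gene, no Gm, LOC or Rik symbols), genes with 3 or more windows, the largest allele differences, genes named in the study, windows at the limits and list members. Sequences were read from RefSeq GRCm38. Genes are the nearest in the deposited annotation. CB6F1/J inputs were not used.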

Additional observations from a re-analysis of the deposited data

How the results depend on the processing

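The rule gave 142 windows with a lower limit of 0.2 CPM and 847 with 0.6 CPM, and 676 with an upper limit of 2 CPM and 238 with 5 CPM. It gave 432 to 568 without 1 library and 423 with TMM scaling, of which 407 were among the 429. F1 calls in windows lowest in A/J (5) were 2 with DESeq2, 1 with a mean count over 32, 13 over 5, 16 with no filter, 1 with the library as a block and 1 to 7 without 1 library. In windows lowest in BALB/cJ (1) they were 2 with regions summed, 0 over 32, 13 over 5, 15 with no filter and 1 to 4 without 1 library. In windows lowest in C57BL/6J (4) they were 0 over 32, 13 over 5, 15 with no filter and 3 to 5 without 1 library. Over all windows (293) they were 153 over 32, 495 over 5, 586 with no filter, 113 with the block and 103 to 302 without 1 library. No named allele difference changed its direction. Input calls of A/J against BALB/cJ (50, 14 among the 429) were 0 and 0 with DESeq2, 21 and 6 with at least 40 counts, and 7 to 37 and 5 to 14 without 1 library. A/J against C57BL/6J (0 and 0) gave 5 and 1 with no filter and with at least 10 counts. BALB/cJ against C57BL/6J (4 and 3) gave 0 and 0 with DESeq2, 8 and 5 with at least 10 counts, and 1 to 4 and 1 to 3 without 1 library. Input replicate numbers do not pair the strains (correlations 0.0411, 0.0354 and -0.0111). With a replicate block BALB/cJ against C57BL/6J gave 1 and 1 calls, and A/J against BALB/cJ 45. Causes of these shifts were not tested, beyond the number of windows that each filter admits. The 1 C57BL/6J input library left a median of 5.0 counts per window, and 234 of the 429 windows had no read that tells the alleles apart.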

Other observations

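The windows were unevenly spread over chromosomes, with 45 of 429 on chromosome 11 (10.5%, against 7.14% of all autosomal windows), 41 on chromosome 4 (9.56% against 6.21%) and 7 on chromosome 12 (1.63% against 4.18%). In 13 of the 347 loci the windows were lowest in more than 1 strain. The loci of *Nlrp1b* and *Nlrp1c-ps* ended within their family: the 3 windows of the neighboring *Nlrp1a* had BALB/cJ means of 3.77 to 6.67 CPM and BALB/cJ input counts of 16 to 21. The *Nlrp1b* window at chr11:71224410-71225410, with 1.06 CPM in A/J, 0 in BALB/cJ and 0.664 CPM in C57BL/6J, was under the upper limit and had 34.5, 0 and 3.5 input counts in these strains.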
